A study of Mus musculus with 47 samples.

Results

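Genes of glycine transmission were followed through the brain transcriptomes of 3xTg mice kept on diets restricted in a single branched-chain amino acid. The 8 genes were found by symbol and Ensembl ID among the 55416 genes of the count tables, and all 8 passed the filter on low counts in both sexes. They are Slc6a5 (ENSMUSG00000039728), Slc6a9 (ENSMUSG00000028542), Glra1 (ENSMUSG00000000263), Glra2 (ENSMUSG00000018589), Glra3 (ENSMUSG00000038257), Glrb (ENSMUSG00000028020), Slc32a1 (ENSMUSG00000037771) and Gphn (ENSMUSG00000047454). The 3xTg mouse is a model of Alzheimer's disease that carries human mutant APP and tau transgenes and a mutant presenilin 1 allele, and the mice of every group, Control included, carried all of them. The mice were placed at 6 months of age on amino acid-defined diets, either Control or low in valine (ValR), isoleucine (IleR) or leucine (LeuR), and their brains were collected after 9 months of feeding. RNA-seq counts were analysed for 37 libraries, from 4 Control-fed, 3 IleR-fed, 3 LeuR-fed and 4 ValR-fed males and from 6 Control-fed, 5 IleR-fed, 6 LeuR-fed and 6 ValR-fed females. A further 10 male libraries in the labels were not analysed here. The labels give brain as the tissue although their extraction text names liver, and 7 pan-neuronal markers summed to between 3951 and 6694 CPM (counts scaled to a common library size) in every library, with none of them at 0. The labels do not name the piece of brain, and the study's text gives the whole brain in its results and the left hemisphere in its methods.

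At a glycinergic synapse, glycine is loaded into vesicles by the vesicular inhibitory amino acid transporter encoded by Slc32a1, which also loads GABA. It is released onto chloride channels made of alpha subunits (Glra1, Glra2, Glra3) and the beta subunit (Glrb), which gephyrin (Gphn) anchors beneath the membrane. GlyT2, the product of Slc6a5, returns glycine to the nerve terminal and marks glycinergic neurons, while GlyT1, the product of Slc6a9, clears glycine mainly into glia. Fast glycinergic inhibition is known best from the brainstem, cerebellum and spinal cord, and in the adult Glra1 is the alpha subunit most associated with those regions.

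All 8 genes are protein-coding. In GRCm38, Slc6a5 lies on chromosome 7 (49910146 to 49963856, plus strand), Slc6a9 on chromosome 4 (117834506 to 117875198, plus), Glra1 on chromosome 11 (55514238 to 55608198, minus) and Glra2 on chromosome X (165129017 to 165327393, minus). Glra3 lies on chromosome 8 (55940460 to 56130070, plus), Glrb on chromosome 3 (80843599 to 80913660, minus), Slc32a1 on chromosome 2 (158610767 to 158615748, plus) and Gphn on chromosome 12 (78226379 to 78684772, plus). Exons of antisense genes overlap 27.8% of the exonic bases of Slc6a9 (Ccdc24) and 24.9% of those of Slc32a1 (Gm14205). RefSeq promoters (GRCm38.p6) were matched by symbol for 7 of the 8 genes. The 250 bases before the most upstream start among the RefSeq entries are shown for Slc6a5, Slc6a9 and Slc32a1, each called higher in males on at least 2 of the 3 diets, and for Gphn, whose level hardly varied. The gene coordinates above are those of GENCODE, which places the starts of Slc6a5, Slc6a9 and Gphn further upstream, so that their windows lie partly or wholly inside the GENCODE gene. Capitals mark matches to the E box CANNTG, which reads alike on both strands.
Slc6a5, chr7:49910049-49910298, plus strand: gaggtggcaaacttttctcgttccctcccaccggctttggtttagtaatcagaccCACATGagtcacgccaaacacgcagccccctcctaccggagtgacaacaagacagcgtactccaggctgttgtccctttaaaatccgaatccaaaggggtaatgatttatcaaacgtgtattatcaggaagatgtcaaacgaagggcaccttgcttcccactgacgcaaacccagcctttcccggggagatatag
Slc6a9, chr4:117835008-117835257, plus strand: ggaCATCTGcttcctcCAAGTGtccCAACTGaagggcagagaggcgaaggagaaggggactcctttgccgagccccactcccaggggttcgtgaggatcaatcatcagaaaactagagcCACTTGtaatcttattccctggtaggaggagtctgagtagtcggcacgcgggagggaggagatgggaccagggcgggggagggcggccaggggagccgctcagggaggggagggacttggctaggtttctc
Slc32a1, chr2:158610508-158610757, plus strand: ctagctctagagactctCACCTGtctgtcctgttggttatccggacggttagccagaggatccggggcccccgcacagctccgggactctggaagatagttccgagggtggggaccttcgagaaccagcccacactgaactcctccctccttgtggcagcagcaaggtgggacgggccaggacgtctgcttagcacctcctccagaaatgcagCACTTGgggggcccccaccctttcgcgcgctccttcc
Gphn, chr12:78226405-78226654, plus strand: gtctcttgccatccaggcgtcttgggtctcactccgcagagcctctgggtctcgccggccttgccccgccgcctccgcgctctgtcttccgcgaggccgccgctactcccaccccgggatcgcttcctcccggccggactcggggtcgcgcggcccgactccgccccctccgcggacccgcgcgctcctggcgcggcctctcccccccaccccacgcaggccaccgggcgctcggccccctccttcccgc
The Slc6a5 window held 1 E box, the Slc6a9 window 4, the Slc32a1 window 2 and the Gphn window none, and 66.2% of 32851 mouse promoter windows of this length held at least 1. GC content was 50.4% for Slc6a5, 60.4% for Slc6a9, 62.4% for Slc32a1 and 77.2% for Gphn, against a median of 52.4%. GGGCGG on either strand (present in 32.7% of all windows) occurred in the Slc6a9 and Gphn windows and in neither of the other two, and TATAAA (12.4% of all windows) occurred in none of the 4. These letters describe the windows and say nothing about which factors bind there.

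The libraries differed in the brain regions they represented, and the members are read beside that difference. Libraries held between 10672599 and 25722333 assigned counts. The summed level of 8 cerebellar markers ran from 14.5 to 31.8 CPM in Control-fed males and from 936 to 3519 CPM in IleR-fed and ValR-fed males, and all 8 were called higher in both comparisons with Control, at an adjusted p under 0.05 (edgeR quasi-likelihood test with Benjamini-Hochberg adjustment, as throughout). The 15 brainstem and spinal cord markers summed to between 1.32 and 4.74 CPM in Control-fed males, where 9 or 10 of them were at 0, and to between 14.5 and 272 CPM in IleR-fed and ValR-fed males, where none was at 0. The 12 forebrain markers summed to between 797 and 2513 CPM in Control-fed males and to between 178 and 265 CPM in the same 2 restricted groups. A hindbrain score was computed in each library as the average of the cerebellar and brainstem list means minus the forebrain list mean, in log2 CPM. It was between -8.49 and -5.70 in Control-fed males, between 0.81 and 2.74 in IleR-fed males and between 2.92 and 4.08 in ValR-fed males. LeuR-fed males 19 and 20 scored 2.71 and 0.11, whereas LeuR-fed male 21 scored -4.57 with 10 of the 15 brainstem markers at 0. The forebrain markers summed to 147, 484 and 386 CPM in LeuR-fed males 19, 20 and 21, all below every Control. In male 21 the cerebellar and brainstem markers summed to 33.3 and 8.67 CPM, each above the highest Control. Male 21 thus differed from the Controls in region markers as well. In LeuR-fed males, 7 of the 8 cerebellar and 12 of the 15 brainstem markers were called higher, and 5 of the 12 forebrain markers lower. In males, diet and region content cannot be told apart. Cell type markers moved too: 6 oligodendrocyte markers summed to between 4564 and 9415 CPM in Control-fed males, to 6373 CPM in LeuR-fed male 21 and to between 9574 and 18266 CPM in the other 9 restricted males, although none of the 6 was called. The 7 pan-neuronal markers summed to between 4727 and 6592 CPM in Control-fed and between 3977 and 4896 CPM in restricted males, with Stmn2 called higher and Syt1 lower on every diet and Map2 lower on ValR. The 6 astrocyte markers summed to between 3586 and 4946 CPM in Control-fed and between 2945 and 4515 CPM in restricted males. Of these 6, Aldoc was called higher and Slc1a2 lower on every diet, and Aqp4 was called higher on IleR and ValR. The part of these cell types in the results was not tested. In females the scores ran from -8.54 to -0.66 on Control, from -7.98 to -1.41 on IleR, from -8.26 to 3.14 on LeuR and from -7.55 to 0.26 on ValR, so that the diets overlapped.

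Among the transporters, Slc6a5 differed most between the restricted males and the Controls. It was at 0.0681, 0.233, 2.75 and 0.11 CPM in Control-fed males 1, 3, 4 and 5, which rests on 1, 4, 43 and 2 assigned counts. It was at 160.1, 136 and 47.9 CPM in the IleR-fed males 13, 14 and 17, at 447, 269.8 and 0.447 CPM in the LeuR-fed males 19, 20 and 21, and at 261, 393, 234 and 83.8 CPM in the ValR-fed males 7, 9, 10 and 12. Thus 9 of the 10 restricted males lay above the highest Control, and LeuR-fed male 21, the restricted male with the lowest hindbrain score, lay among the Controls. Slc6a5 was higher by a log2 fold change of 7.20 ± 1.49 (SE) in IleR-fed males (adjusted p = 0.00611, over 22197 genes tested), 8.25 ± 1.52 in LeuR-fed males (adjusted p = 0.00795) and 8.28 ± 1.50 in ValR-fed males (adjusted p = 0.00155). Because the Control levels rest on so few counts, these fold changes are imprecise. Without Control-fed male 4, the changes were 9.59, 10.64 and 10.67. In limma voom, no diet passed the threshold for Slc6a5 (adjusted p between 0.220 and 0.417).

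Slc6a9, whose product clears glycine into glia, was at 47.7, 58.3, 112 and 77.6 CPM in the Control-fed males. It was at 189, 194 and 154 CPM in the IleR-fed males, at 233, 199 and 124 CPM in the LeuR-fed males, and at 189.9, 202, 172 and 159 CPM in the ValR-fed males. All 10 restricted males lay above all 4 Controls, LeuR-fed male 21 being the lowest of the 10. The log2 fold change was 1.27 ± 0.25 in IleR-fed (adjusted p = 0.00484), 1.31 ± 0.25 in LeuR-fed (adjusted p = 0.00859) and 1.28 ± 0.24 in ValR-fed males (adjusted p = 0.00175), from 73.8 ± 28.1 CPM (SD, n = 4) in Controls. Whether reads from the antisense partner entered these counts was not tested, since the sources used here do not say whether counting used strand.

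Slc32a1, which encodes the transporter that fills inhibitory vesicles, moved less. It was at 176, 114, 191 and 149.7 CPM in the Control-fed males, at 199, 212 and 184 CPM in the IleR-fed, at 288, 199 and 262 CPM in the LeuR-fed and at 239.9, 257, 238 and 187 CPM in the ValR-fed males. Only 2 restricted males, IleR-fed male 17 and ValR-fed male 12, lay below the highest Control. It was called higher in LeuR-fed males (log2 fold change 0.65 ± 0.17, adjusted p = 0.0276) and ValR-fed males (0.54 ± 0.16, adjusted p = 0.0245) and not in IleR-fed males (0.33 ± 0.17, adjusted p = 0.219). LeuR-fed male 21, with little Slc6a5, held one of the higher levels of Slc32a1. Its summed level of the GABAergic neuron markers Gad1 and Gad2 was 855 CPM, against 433 to 726 CPM in the other 13 males, and the part of that in the Slc32a1 level was not tested. The LeuR call was lost without Control-fed male 1, 3 or 5 or LeuR-fed male 19 (adjusted p up to 0.126), and the ValR call without Control-fed male 3 or 5 or ValR-fed male 7, 9 or 10 (adjusted p up to 0.0653).

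**Figure D1:**
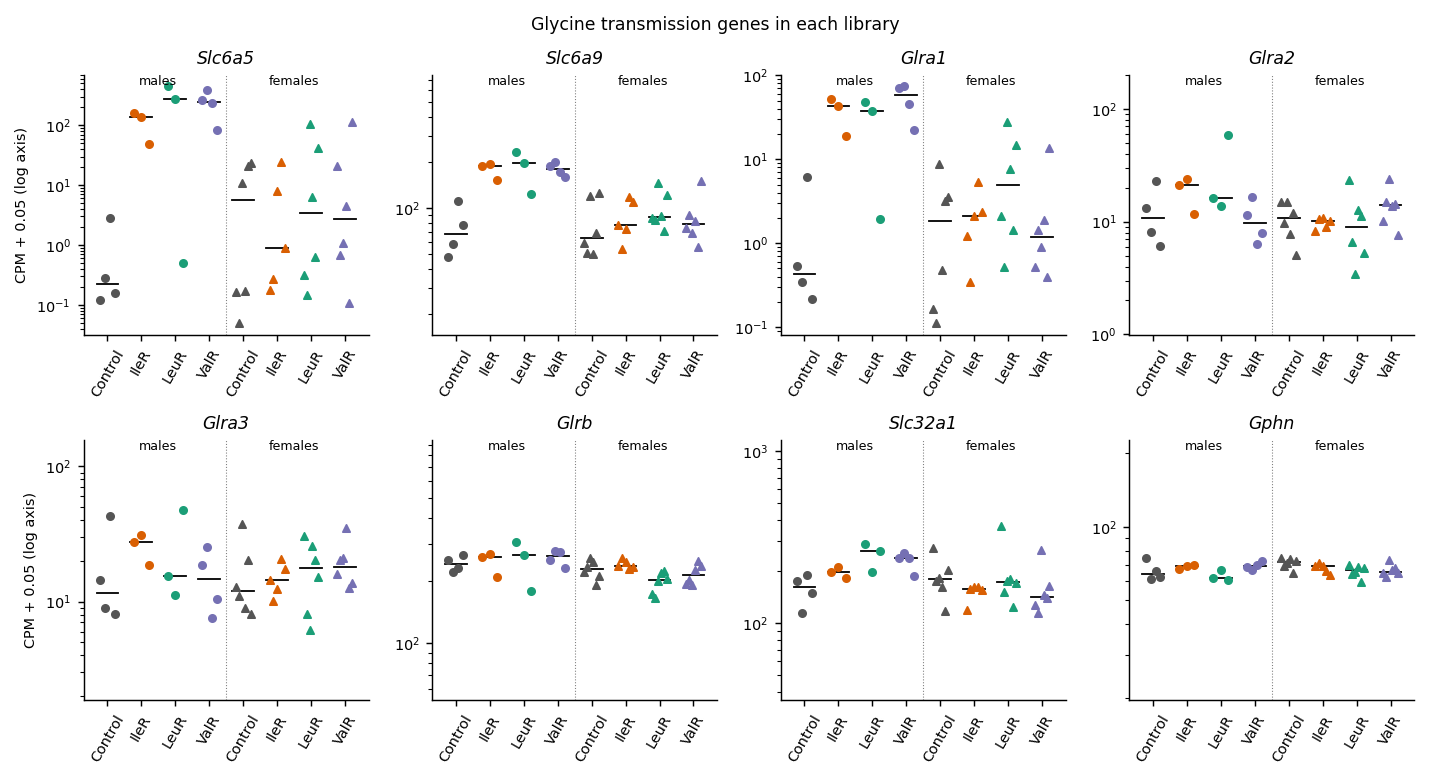
Level of each of the 8 genes in each library, as CPM plus 0.05 on a log axis, by diet, with males as circles, females as triangles and group medians as black lines. In males, Slc6a5 and Glra1 of 9 of the 10 restricted libraries lie above every Control library, and the remaining library is LeuR-fed male 21, whereas Gphn lies between 59.4 and 74.8 CPM in every library of either sex.

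Among the receptor subunits, Glra1 alone was called. Glra1 was at 0.477, 0.291, 6.15 and 0.165 CPM in the Control-fed males, at 52.4, 43.4 and 18.8 CPM in the IleR-fed, at 48.7, 37.1 and 1.90 CPM in the LeuR-fed and at 70.1, 73.9, 45.0 and 22.1 CPM in the ValR-fed males. The order of libraries resembled that of Slc6a5: Control-fed male 4 was the highest Control and LeuR-fed male 21 again fell within the Control range. The log2 fold change was 4.45 ± 1.04 in IleR-fed (adjusted p = 0.0117), 4.06 ± 1.04 in LeuR-fed (adjusted p = 0.0276) and 4.91 ± 1.03 in ValR-fed males (adjusted p = 0.00389). The LeuR call was lost without Control-fed male 1, 3 or 5 or LeuR-fed male 19 or 20 (adjusted p up to 0.108). Without Control-fed male 4, the changes were 6.94, 6.54 and 7.40 for IleR, LeuR and ValR. In limma voom, Glra1 was called for ValR (adjusted p = 0.0334) and not for IleR (0.0603) or LeuR (0.158).

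Glra2, the alpha subunit best known from the developing brain, was at 13.2, 8.09, 23.1 and 6.05 CPM in the Control-fed males and at between 6.27 and 23.8 CPM in 9 of the restricted males. LeuR-fed male 21 stood apart at 58.4 CPM. The log2 fold change was 0.58 ± 0.54 in IleR-fed (adjusted p = 0.523), 1.23 ± 0.54 in LeuR-fed (adjusted p = 0.160) and -0.27 ± 0.51 in ValR-fed males (adjusted p = 0.762), and without LeuR-fed male 21 the LeuR value was 0.25 ± 0.49.

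Glra3 was at 14.3, 8.90, 43.1 and 8.03 CPM in the Control-fed males and at between 7.51 and 47.3 CPM in the restricted males, so the groups overlapped throughout. None of the 3 diets was called (adjusted p between 0.667 and 0.789). Its 2 highest male libraries were LeuR-fed male 21 and Control-fed male 4, at 47.3 and 43.1 CPM. Leaving both of those libraries out, an alternative chosen after the data were seen, gave a log2 fold change of 1.28 in IleR-fed males (adjusted p = 0.0360), in a fit that called 23.5% of all genes for that diet.

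Glrb, the beta subunit that binds gephyrin, was at 251, 219.9, 231 and 266 CPM in the Control-fed males and at between 178 and 307 CPM in the restricted males. Its log2 fold changes were 0.01 ± 0.16 in IleR-fed, 0.03 ± 0.16 in LeuR-fed and 0.08 ± 0.15 in ValR-fed males. The 95% interval for LeuR ran from -0.31 to 0.37. Gphn was at 74.8, 61.3, 66.1 and 62.2 CPM in the Control-fed males and at between 60.7 and 72.8 CPM in the restricted males, with log2 fold changes between -0.08 and 0.06, each with an SE of 0.07 or 0.08. It was the least variable member, with a coefficient of variation of 6.40% over the 14 male libraries against 106% for Slc6a5 and 87.7% for Glra1.

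In IleR-fed males, 3 of the 8 genes were called (Slc6a5, Slc6a9 and Glra1), all higher, beside 15.3% of all genes tested called in either direction and 6.63% called higher. In LeuR-fed males it was 4 of 8, with Slc32a1 added and all higher, beside 10.1% in either direction and 3.81% higher. Fitted on the LeuR-fed and Control-fed males alone, none of the 4 was called (adjusted p between 0.0847 and 0.143), beside 0% of the 21015 genes tested in that fit, which called no gene at all. All 4 had an unadjusted p under 0.05 there, as did 21.9% of all genes. In ValR-fed males the same 4 genes were called higher, beside 23.5% in either direction and 11.1% higher. On IleR, LeuR and ValR the median log2 fold change of the 8 was 0.53, 0.94 and 0.31, against 0.04, 0.05 and 0.03 over all genes tested. Without LeuR-fed male 21, the LeuR changes of Slc6a5, Slc6a9, Glra1 and Slc32a1 were 8.85, 1.55, 4.63 and 0.63, all called (adjusted p = 0.000489, 0.00340, 0.00566 and 0.0468), beside 14.7% of all genes in that fit. Across the 8 genes, limma voom called 1, 2 and 3 on IleR, LeuR and ValR, beside 16.7%, 10.9% and 23.3% of all genes. The 3 comparisons share the same 4 Control libraries, so their agreement is not independent.

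**Figure D2:**
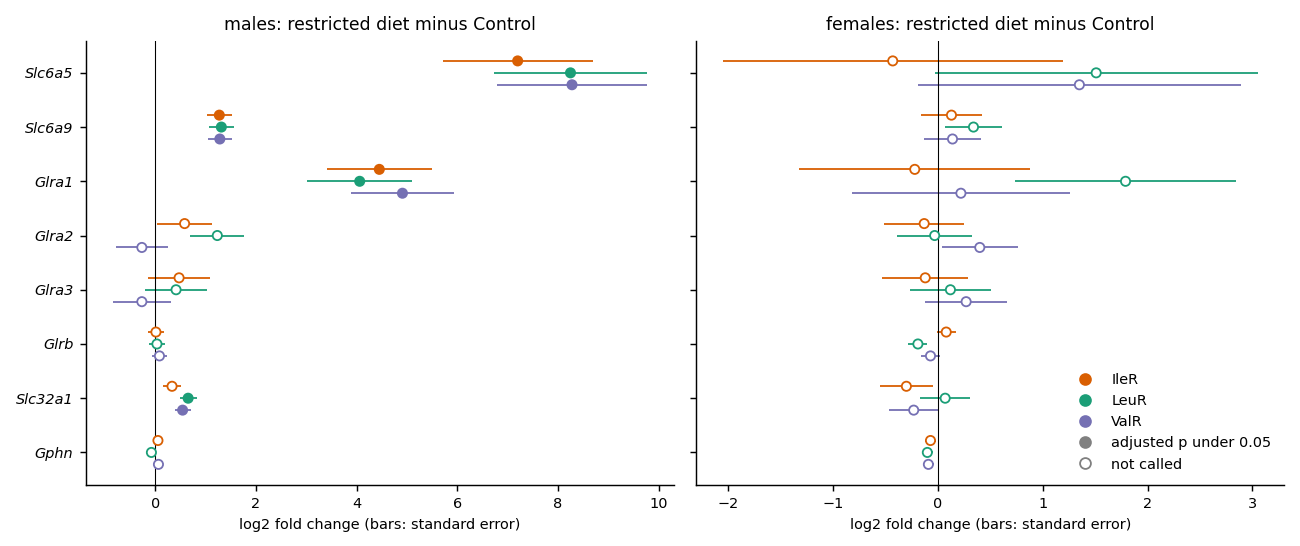
Log2 fold change of each gene on each restricted diet relative to Control, with standard errors as bars, for males (left) and females (right, on its own scale). Filled points had an adjusted p under 0.05: Slc6a5, Slc6a9 and Glra1 on every diet and Slc32a1 on LeuR and ValR in males, and none in females.

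When the hindbrain score was added to the model of the males, none of the 8 genes was called on any diet, at n = 14, beside 0.0135%, 0.0676% and 0% of all genes for IleR, LeuR and ValR. That fit thus called almost no gene at all. At an unadjusted p under 0.05, 1, 2 and 1 of the 8 passed in it, beside 8.50%, 9.11% and 8.99% of all genes. None of those that passed was Slc6a5, Slc6a9, Glra1 or Slc32a1, the genes called without the score. The log2 fold change of Slc6a5 became -1.43 ± 2.54 for IleR, 0.16 ± 2.20 for LeuR and -2.38 ± 3.06 for ValR, that of Slc6a9 became -0.10 ± 0.39, 0.27 ± 0.30 and -0.33 ± 0.44, and that of Glra1 became -1.06 ± 1.63, -0.80 ± 1.40 and -1.86 ± 1.93. No restricted male had a score within the range of the Controls, and the standard errors grew, from 1.50 to 3.06 for Slc6a5 on ValR. Slc32a1 kept its sign, at 0.14 ± 0.37, 0.52 ± 0.29 and 0.32 ± 0.42.

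Across all 37 libraries of both sexes, Slc6a5, Glra1 and Slc6a9 were ordered much as the hindbrain score was. In the 18 libraries with a score under -5, among them all 4 male Controls and 14 female libraries, Slc6a5 ran from 0 to 6.18 CPM, Glra1 from 0.0623 to 7.62 CPM and Slc6a9 from 47.7 to 112 CPM. In the 8 libraries with a score between -5 and 0, of which 7 were female, Slc6a5 ran from 0.447 to 41.0 CPM, Glra1 from 0.476 to 14.9 CPM and Slc6a9 from 68.8 to 125 CPM. In the 11 libraries with a score above 0, of which 9 were restricted males and 2 were females, Slc6a5 ran from 47.9 to 447 CPM, Glra1 from 13.4 to 73.9 CPM and Slc6a9 from 146 to 233 CPM. Slc32a1 overlapped broadly between these bands, from 114 to 365, 118 to 262 and 164 to 288 CPM, as did Gphn, from 59.4 to 74.8, 60.7 to 72.5 and 62.0 to 72.8 CPM. These bands were drawn after the data were seen and describe the libraries, with no test. In bulk tissue, more cells of a type and more RNA per cell cannot be told apart.

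**Figure D3:**
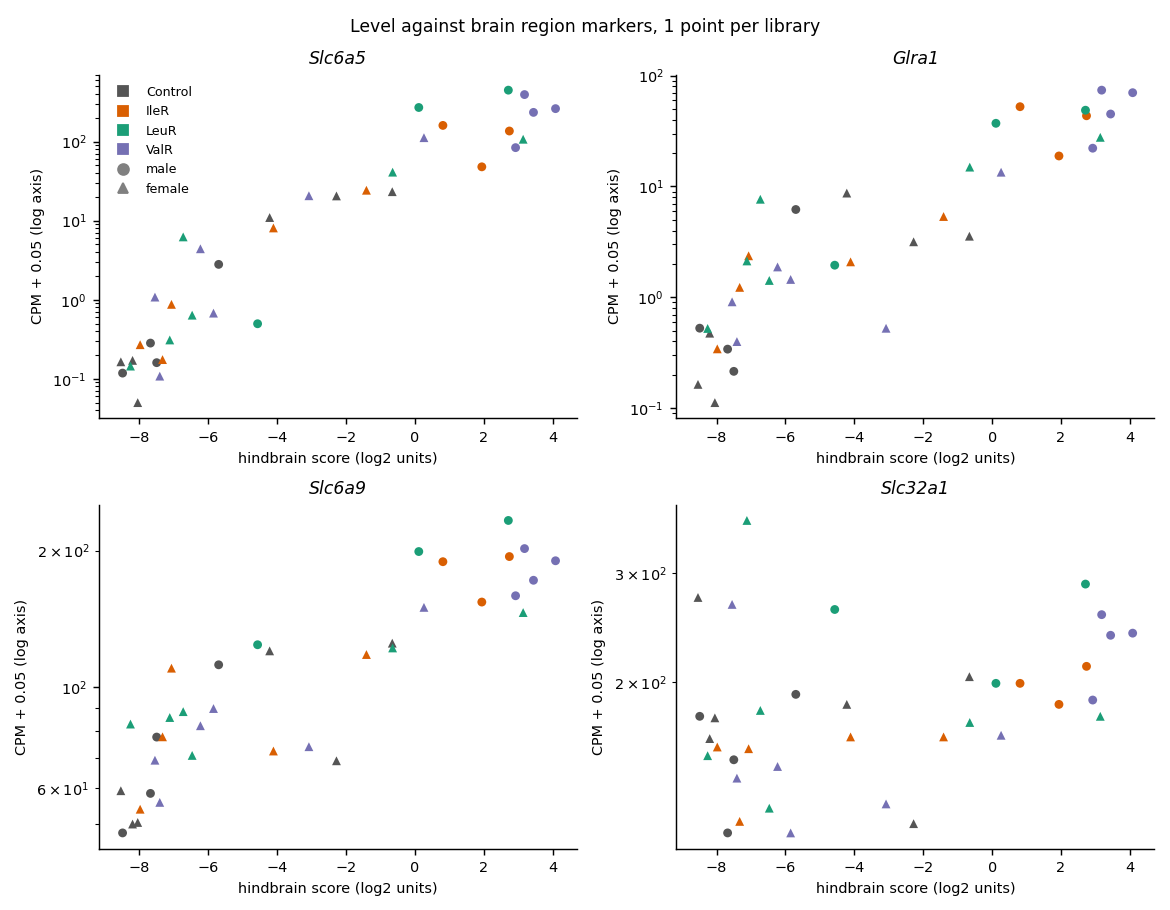
Level of Slc6a5, Glra1, Slc6a9 and Slc32a1 (CPM plus 0.05, log axis) against the hindbrain score in each of 37 libraries, coloured by diet, with males as circles and females as triangles. The 11 libraries with a score above 0 hold Slc6a5 at 47.9 CPM or more, and the 18 libraries with a score under -5 hold it at 6.18 CPM or less, whichever the sex.

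The make-up of the alpha subunits also differed between libraries. Expressed per kilobase of exon, so that genes can be compared, Glra2 made up between 50.4% and 70.6% of the summed level of Glra1, Glra2 and Glra3 in the Control-fed males, and Glra1 between 2.39% and 17.5%. Glra1 made up between 57.6% and 69.0% in the IleR-fed males and between 71.5% and 86.9% in the ValR-fed males. In LeuR-fed males 19 and 20, Glra1 held 74.8% and 73.3%, and in LeuR-fed male 21 it held 3.22%. In females, the share of Glra1 ran from 0.6% to 37.1% in Controls, from 2.64% to 30.1% on IleR, from 6.26% to 86.8% on LeuR and from 2.40% to 59.0% on ValR, so that the groups overlapped.

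**Figure D4:**
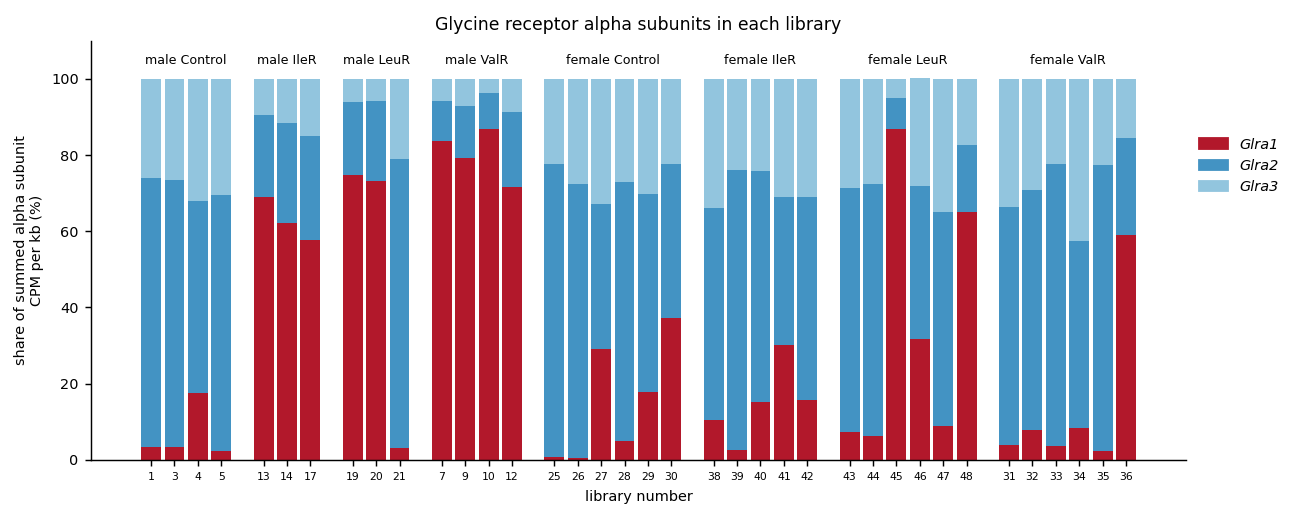
Share of Glra1, Glra2 and Glra3 in their summed CPM per kilobase of exon, 1 bar per library, grouped by sex and diet. Glra1 holds 57.6% or more in 9 restricted male libraries, 3.22% in LeuR-fed male 21 and at most 17.5% in the male Controls, and in females it holds 59.0% or more in libraries 45, 48 and 36 and 37.1% or less in the others.

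Per kilobase, Slc32a1 (56.3 ± 12.0 CPM per kb, SD, n = 4) and Glrb (52.0 ± 4.46) were the most abundant members in Control-fed males and lay within each other's spread. Gphn (17.6 ± 1.64) and Slc6a9 (14.4 ± 5.47) followed and also overlapped, then Glra2 (4.01 ± 2.42), Glra3 (2.02 ± 1.80), Glra1 (0.733 ± 1.21) and Slc6a5 (0.110 ± 0.182), where neighbours again overlapped. In ValR-fed males the order was Slc32a1 (82.3 ± 10.9), Glrb (55.5 ± 4.70), Slc6a9 (35.2 ± 3.67), Slc6a5 (33.7 ± 17.6), Glra1 (21.9 ± 9.99), Gphn (18.6 ± 0.670), Glra2 (3.34 ± 1.43) and Glra3 (1.68 ± 0.875). Slc6a5 thus lay last of the 8 in the Controls and within the spread of Slc6a9 in the ValR-fed males.

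The restricted diets were also set against each other in males. None of the 8 genes was called between ValR and IleR, beside 0% of all genes, with 0 of the 8 and 2.83% of all genes at an unadjusted p under 0.05. None was called between IleR and LeuR, beside 0% of all genes, with 0 of the 8 and 11.3% of all genes at an unadjusted p under 0.05. None was called between ValR and LeuR either, beside 2.75% of all genes, with 1 of the 8 and 23.9% of all genes at an unadjusted p under 0.05. The intervals differed in width between genes. The 95% interval of the log2 difference in Slc6a5 ran from -1.31 to 3.47 for ValR against IleR, and from -2.29 to 2.35 for ValR against LeuR. For Slc6a9 they ran from -0.53 to 0.55 and from -0.57 to 0.51. Glra2 was at a log2 difference of -1.50 ± 0.54 in ValR against LeuR (adjusted p = 0.118), which DESeq2 called (-1.49, adjusted p = 0.0440) beside 11.5% of all genes, and at -0.52 without Control-fed male 4 and LeuR-fed male 21.

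In females, none of the 8 genes was called on any diet, beside 0% of the 20344 genes tested in each of the IleR, LeuR and ValR comparisons (0% in all). At an unadjusted p under 0.05, 0, 1 and 0 of the 8 passed (Glrb on LeuR, log2 fold change -0.19 ± 0.09), beside 2.84%, 4.03% and 3.82% of all genes. Neither limma voom nor DESeq2 called any of them. Slc6a5 had a median of 5.52 CPM in Control-fed females (lowest 0, highest 23.2), 0.824 in IleR-fed (0.125 to 24.2), 3.38 in LeuR-fed (0.0948 to 107) and 2.69 in ValR-fed females (0.0581 to 112). Every diet thus held libraries close to 0 and libraries with clear expression, and the highest were LeuR-fed female 45 and ValR-fed female 36, with hindbrain scores of 3.14 and 0.26. Its log2 fold changes were -0.43 ± 1.62, 1.51 ± 1.54 and 1.35 ± 1.54, with 95% intervals that reached from -3.80 to 4.72. Single libraries carried these values: without LeuR-fed female 45 the LeuR change was 0.10, without ValR-fed female 36 the ValR change was -0.78, and without Control-fed female 30 the IleR change was 0.10.

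Slc6a9 varied less between female libraries than Slc6a5. It had a median of 63.9 CPM in Control-fed females (49.9 to 125), 77.7 in IleR-fed (53.8 to 118), 87.0 in LeuR-fed (70.7 to 146) and 78.1 in ValR-fed females (55.7 to 149.9). The log2 fold changes were 0.13 ± 0.29, 0.34 ± 0.27 and 0.14 ± 0.27. Glra1 had a median of 1.77 CPM in Control-fed females (0.0623 to 8.67), 2.04 in IleR-fed (0.293 to 5.31), 4.85 in LeuR-fed (0.474 to 27.7) and 1.13 in ValR-fed females (0.349 to 13.4), all overlapping. Slc32a1 had medians of 179.5, 157, 174 and 143 CPM in Control-fed, IleR-fed, LeuR-fed and ValR-fed females, and Glrb 227, 234, 202 and 213 CPM. Glra2 lay between 3.39 and 23.8 CPM and Glra3 between 6.16 and 37.2 CPM over the 23 female libraries, with no diet apart from the others. Gphn lay between 59.4 and 74.4 CPM.

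The difference between the sexes in each diet effect was tested in 1 model of all 37 libraries (22465 genes). None of the 8 genes was called for IleR, LeuR or ValR, beside 0.0979%, 0.00445% and 4.25% of all genes, and 3, 2 and 4 of the 8 had an unadjusted p under 0.05, beside 19.1%, 13.0% and 26.0% of all genes. The log2 change of Slc6a5 was larger in males by 7.59 ± 2.63 for IleR (adjusted p = 0.128), 6.74 ± 2.55 for LeuR (adjusted p = 0.250) and 6.88 ± 2.51 for ValR (adjusted p = 0.0902). For ValR, the change of Glra1 was larger in males by 4.64 ± 1.60 (adjusted p = 0.0770) and that of Slc6a9 by 1.11 ± 0.41 (adjusted p = 0.0933). DESeq2 called Slc6a5 for IleR (adjusted p = 0.0373), and Slc6a5, Glra1 and Slc6a9 for ValR (adjusted p = 0.0289, 0.0325 and 0.0467), beside 4.64% and 10.5% of all genes for the 2 diets. Without ValR-fed female 36, these 3 genes were called for ValR in edgeR too (adjusted p = 0.0253, 0.0173 and 0.0273), beside 10.9% of all genes. Without Control-fed male 4, Glra1 was called for IleR and ValR and Slc6a9 for ValR (adjusted p = 0.0370, 0.0243 and 0.0396), beside 3.82% of all genes for IleR and 6.71% for ValR. The sizes of these differences also moved with single libraries: without Control-fed male 4, the sex difference in Slc6a5 was 10.00, 9.12 and 9.33 for IleR, LeuR and ValR, and without ValR-fed female 36 it was 9.06 for ValR. Over all fits that left out 1 library, the sex difference in Glra1 for ValR ran from 3.80 (without Control-fed female 27) to 7.17 (without Control-fed male 4). No alternative called a sex difference for LeuR in any of the 8 genes (adjusted p of 0.0756 or more), or for any diet in Glra2, Glra3, Glrb, Slc32a1 or Gphn (0.0758 or more).

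Of 14 other genes of glycine handling and the inhibitory synapse, 2 were higher and 1 lower in IleR-fed males, 1 higher and 1 lower in LeuR-fed males, and 3 higher and 1 lower in ValR-fed males, beside 15.3%, 10.1% and 23.5% of all genes called in either direction, with medians of 0.13, 0.17 and 0.09 against 0.04, 0.05 and 0.03 over all genes. Slc7a10, which encodes the Asc-1 transporter of glycine and D-serine, rose on every diet in males, with log2 fold changes of 0.60 ± 0.19 for IleR (adjusted p = 0.0473), 0.94 ± 0.19 for LeuR (adjusted p = 0.0107) and 0.60 ± 0.18 for ValR (adjusted p = 0.0253). Slitrk3, a postsynaptic adhesion gene of inhibitory synapses, fell by 1.10 in IleR-fed (adjusted p = 0.0134) and 1.32 in ValR-fed males (adjusted p = 0.00162), and was at -0.60 ± 0.26 in LeuR-fed males, where it was not called (adjusted p = 0.156).

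Genes of glycine synthesis and breakdown gave mixed calls. Shmt2, the mitochondrial enzyme that makes glycine from serine, had a level of 21.8 ± 1.53 CPM (SD) in the 4 Control-fed, 39.9 ± 3.21 (n = 3) in IleR-fed, 25.1 ± 4.56 (n = 3) in LeuR-fed and 35.1 ± 4.90 CPM (n = 4) in ValR-fed males. It was called higher for IleR (log2 fold change 0.86 ± 0.13, adjusted p = 0.00151) and ValR (0.67 ± 0.12, adjusted p = 0.00179). Shmt1, the cytosolic enzyme, was called higher for ValR (1.02 ± 0.30, adjusted p = 0.0239) at levels of 3.05 ± 0.586 against 1.50 ± 0.556 CPM. Gldc, the decarboxylase of the glycine cleavage system, was called lower for LeuR (-1.48 ± 0.35, adjusted p = 0.0209) and did not pass the threshold at -1.08 ± 0.35 for IleR and -0.89 ± 0.31 for ValR (adjusted p = 0.0558 for ValR and just at the threshold for IleR), and the other cleavage genes Amt, Gcsh and Dld were not called on any diet. Gad1 and Gad2, which make GABA, were not called on any diet. In females, none of the 14 was called on any diet, beside 0% of all genes. Nlgn2 on LeuR was the 1 gene at an unadjusted p under 0.05, beside 2.84%, 4.03% and 3.82% of all genes on IleR, LeuR and ValR. With the hindbrain score in the model of the males, none of the 14 was called (adjusted p of 0.520 or more) on IleR, LeuR or ValR, again beside 0.0135%, 0.0676% and 0% of all genes. In that fit 3, 1 and 3 of the 14 had an unadjusted p under 0.05, beside 8.50%, 9.11% and 8.99% of all genes.

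The genes whose log2 CPM followed Slc6a5 most closely over the 14 male libraries, among 13995 compared, were Pax2, Pygm, Glra1, Nacc2 and Lbx1, with Pearson correlations between 0.973 and 0.987. Slc6a9 followed at 0.931 and Slc32a1 at 0.616, whereas Gphn, Glra3 and Glra2 were at 0.271, 0.0331 and -0.0227. Over the 23 female libraries, among 13885 genes, the closest were Tmtc4, En2, Ttc28, Fzd1 and Tmem132c, between 0.940 and 0.948, with Slc6a9 at 0.757 and Slc32a1 at -0.0847. Glra1 was not among the genes compared in females, because its mean log2 CPM there lay below the threshold of 1. Lbx1 and En2 belong to the brainstem and cerebellar marker lists. These values describe libraries that share diets and region content and carry no test.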

How the data were processed

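Per the study's methods and the labels, brain RNA of 3xTg mice was sequenced on a NovaSeq6000 from stranded libraries (polyA-enriched or total RNA, since the sources differ), reads were aligned to GRCm38, and the authors deposited expected counts per Ensembl gene, one table per sex. The methods describe the removal of outlying samples after principal component analysis as part of the test for changed genes, and whether that accounts for the 10 male libraries not analysed here is not stated. The IleR and LeuR groups of 3 males are smaller than the group sizes the study gives. The aligner's version is not given in the sources used here. The submitters' processing notes name R 3.4.3, edgeR and limma. The deposited tables of the authors' own comparisons hold fold changes and p-values and were not used, and 0 columns belonged to other samples.

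The expected counts were rounded to whole numbers (between 3.69% and 4.93% of values per library were not whole). A gene was tested where some diet group had 1 count or more in each of its libraries. The 4 diets of a sex were fitted together with TMM factors and the edgeR 4.0.16 quasi-likelihood test in R 4.3.3, Benjamini-Hochberg adjustment ran over all genes tested, and an adjusted p under 0.05 was a call. Differences between the sexes were tested in 1 model of 8 groups. Levels are CPM after TMM normalization, and log2 CPM used a prior count of 2. Errors of fold changes are SE taken from the fold change and its F statistic, and 95% intervals use the t quantile at the degrees of freedom of that test. The study counts its transcriptome samples as mice, so each library was taken as 1 mouse, which the labels themselves do not state. Exon lengths and coordinates are from GENCODE M21 (GRCm38). On simulated counts, the fit recovered 89% of 200 changed genes for ValR in males and 90.5% in females. The sizes of those changes and the share of unchanged genes called are not given here. Recovery of changes as small as those of Slc6a9 in females was not tested. Alternatives were limma voom 3.58.1, DESeq2 1.42.0, other size factors, other low-count filters, fits on 2 groups, the hindbrain score as a covariate and each library left out. The genes named are the 8 members, the list of 14 other genes, region and cell type markers beside a result, and the 5 genes closest to Slc6a5 by Pearson correlation (of genes with a mean log2 CPM of 1 or more), for each sex. Results of some listed genes are not reported here. Members and lists were chosen with earlier results of these data known. Depth was between 12682687 and 25722333 counts in males and between 10672599 and 21370973 in females.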

Additional observations from a re-analysis of the deposited data

Results flagged for a closer look

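Of 48 sets of 4 to 6 libraries (8 genes in 6 groups), 9 held a library far from the rest of its group by Dixon's criterion. Chance flags about 1 in 20 sets of independent, normally distributed values, but these sets share libraries and hold skewed CPM values, so the count of 9 cannot be set against that rate. In Control-fed males, library 4 was far above the others for Slc6a5 (2.75 CPM, others at most 0.233) and Glra1 (6.15 CPM, others at most 0.477), and its hindbrain score of -5.70 was the highest of the 4. In ValR-fed females, library 36 was far above the others for Slc6a5 (112 CPM, others at most 20.6), Slc6a9 (149.9 CPM, others at most 89.7) and Glra1 (13.4 CPM, others at most 1.83), and its hindbrain score of 0.26 was the highest of the 6. Library 34 of the same group was high for Glra3 (35.1 CPM, others at most 20.8) at a score of -6.23. Slc32a1 was low in IleR-fed female 38 (119 CPM, others 156 to 163), and high in LeuR-fed female 43 (365 CPM, others at most 179.9) and ValR-fed female 33 (267 CPM, others at most 164), at scores of -7.33, -7.12 and -7.55. The summed level of Gad1 and Gad2, markers of GABAergic neurons, moved with these: it was 529 CPM in female 38 (other IleR-fed females 614 to 649.7), 1206 CPM in female 43 (other LeuR-fed females 505 to 769) and 896 CPM in female 33 (other ValR-fed females 467 to 617). What sets these libraries apart was not tested.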

How the results depend on the processing

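Library totals or DESeq2's size factors in place of TMM, filterByExpr and no filter on low counts left the number of the 8 genes called in each comparison within 1.5 times. For IleR, LeuR and ValR against Control in males (3, 4 and 4 called), limma voom called 1, 2 and 3 (16.7%, 10.9% and 23.3% of all genes), and the hindbrain score as a covariate left 0, 0 and 0 (0.0135%, 0.0676% and 0% of all genes). Under that covariate the log2 fold change turned to -1.43, -0.10 and -1.06 for Slc6a5, Slc6a9 and Glra1 on IleR, to -0.80 for Glra1 on LeuR, and to -2.38, -0.33 and -1.86 for Slc6a5, Slc6a9 and Glra1 on ValR, none of them called. Over all comparisons, alternatives and members, a further 105 of 2928 log2 fold changes changed sign, none of them called before or after. Fitting LeuR-fed and Control-fed males alone called 0 of the 8 and 0% of all genes. DESeq2 called 1 gene between ValR and LeuR, and 1 and 3 genes for the sex difference in IleR and ValR, where edgeR called 0. Leaving out 1 library at a time gave 3 calls in every fit for IleR, 2 to 4 for LeuR and 3 to 4 for ValR in males, 0 to 1 and 0 to 3 for the sex difference in IleR and ValR, and 0 elsewhere. Leaving out both Control-fed male 4 and LeuR-fed male 21, added after the data were seen, gave 1 and 2 calls for the sex difference in IleR and ValR. For IleR against Control in males, that fit called 23.5% of all genes, against 15.3% with every male library. The share of all genes called for its sex differences is not given here, nor are those of most fits without 1 library. These counts are thus not read as particular to the 8 genes. Between Spearman and Pearson correlation, 0 of the 5 genes closest to Slc6a5 were shared in males and 2 in females. No paired analysis was possible because no replicate number is shared between groups. With 3 or 4 male libraries a group, and 1 to 7 counts of Slc6a5 and Glra1 in Control-fed males 1, 3 and 5, the size of those changes is known only loosely.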
